A study of Mus musculus with 6 samples.

Results

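Zbtb7b encodes ThPOK, a transcription factor with a BTB domain and zinc fingers. The locus was set by position, as the 40 kb at mm9 chr3:89170001-89210000, and was picked with earlier results of these data known. It is 1 region among 63702 windows of the same length that held reads in these data. The material was thymic T cells of C57BL/6 mice, with 2 populations, mature CD4+ cells and mature CD8+ cells. Nuclei were digested with micrococcal nuclease to mononucleosomes. Rabbit polyclonal antibodies then pulled down H3K4me3 or H3K36me3, and an input made without antibody was sequenced for each population. No genetic change or treatment is given for either population. Each of the 6 groups is 1 library, so nothing below could be tested across replicates. Intervals are exact 95% intervals that cover counting error only, and they compare libraries, not conditions.

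ThPOK is the factor that commits thymocytes to the helper, CD4+ lineage. It represses cytotoxic genes, and in CD8+ cells its own gene is kept off by Runx complexes acting at a silencer upstream of the gene. H3K4me3 is the mark of active promoters. H3K36me3 is laid down behind elongating RNA polymerase, over the bodies of transcribed genes and mostly towards their 3′ ends.

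The RefSeq table lists 2 promoters of Zbtb7b, on the minus strand, with start sites 5.707 kb apart in build GRCm38.p6. They are shown because the H3K4me3 described below also had a pair of summits. Each window runs from 250 bases before to 50 bases after the start site, at chr3:89393329-89393628 for the distal and chr3:89387622-89387921 for the proximal promoter. These positions are in GRCm38.p6 and were not placed on the mm9 reads. Capitals mark matches to the motifs searched.
Distal promoter: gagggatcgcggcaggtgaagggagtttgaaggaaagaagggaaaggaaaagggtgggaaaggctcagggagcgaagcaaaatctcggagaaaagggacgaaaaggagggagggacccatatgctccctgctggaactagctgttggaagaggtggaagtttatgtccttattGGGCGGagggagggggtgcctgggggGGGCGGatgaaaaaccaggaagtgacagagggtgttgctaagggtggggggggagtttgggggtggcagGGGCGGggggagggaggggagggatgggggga
Proximal promoter: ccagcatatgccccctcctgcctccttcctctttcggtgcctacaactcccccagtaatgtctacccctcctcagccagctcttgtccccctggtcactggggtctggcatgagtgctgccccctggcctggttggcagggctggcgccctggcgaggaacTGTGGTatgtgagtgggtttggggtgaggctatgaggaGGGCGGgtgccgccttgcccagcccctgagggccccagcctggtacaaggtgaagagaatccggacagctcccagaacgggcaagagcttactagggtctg

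The GC box GGGCGG occurred 3 times in the distal and 1 time in the proximal promoter, and 35.7% of the 32851 RefSeq promoters of the same length hold it on either strand. The Runx motif TGTGGT occurred 1 time, in the proximal promoter, starting 89 bases before the start site. It is present in 16.8% of all promoters. The other motifs were searched on both strands and had no match in either window. Among them the Runx variant TGCGGT is present in 6.45% of promoters, and the TCF/LEF motif CTTTGA in 16.0%. For the GATA factors the letters searched were AGATAA, present in 11.2%. For the ETS factors they were CGGAAG, present in 16.9%, and for the TATA box TATAAA, present in 13.6%. The distal window was 59.7% G or C with 8 CG dinucleotides and the proximal window 63.3% with 7, against medians of 52.7% and 7 over all promoters. In the same table the neighbours on the lower side are Dcst2, Dcst1 and Adam15. On the higher side they are the long noncoding RNA Gm15417, which overlaps Zbtb7b and has a promoter on the plus strand, and then Lenep and Flad1. A histone mark where Zbtb7b and Gm15417 overlap cannot be assigned to either gene from these reads.

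The libraries held between 6844546 and 12136610 reads. The number of distinct start positions was 54.4% of the number of placed reads for CD4 H3K4me3 and 31.4% for CD8 H3K4me3. It was 91.2% to 97.6% for the other 4 libraries. Outside marked regions the H3K4me3 background was 19.2% of the input level in CD4 and 1.20% in CD8. The H3K36me3 background was 31.7% in CD4 and 32.5% in CD8, so a level equal to input lies above background. Levels are given as reads or RPM (placed reads scaled to a common library size). Ratios between cell types are centred on the median over windows enriched in both, and scaling to total reads instead lowered every log2 H3K4me3 ratio by 0.40 and every H3K36me3 ratio by 0.04. Markers of the cell types were not examined, for lack of an mm9 gene annotation.

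H3K4me3 was high over about 15 kb of the Zbtb7b locus in CD4 cells and far lower there in CD8 cells. In the central 20 kb, chr3:89180001-89200000, CD4 cells had 5800 reads, or 540.6 RPM, and CD8 cells 62 reads, or 5.12 RPM. The inputs had 48 reads in CD4 and 31 in CD8. The CD4 level was 114.6 times its input (86.3 to 155.6), and the CD8 level 1.65 times its input (1.05 to 2.62), a mean over parts that differed as described below. The ratio of CD4 to CD8 was 139.7 (108.8 to 182.5). With 1 read kept per start position, 2467 and 58 reads remained and the ratio was 45.0 (34.7 to 59.5). The background level of the CD4 library would give 9.70 reads in this stretch, and that of the CD8 library 0.452 reads.

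**Figure D1:**
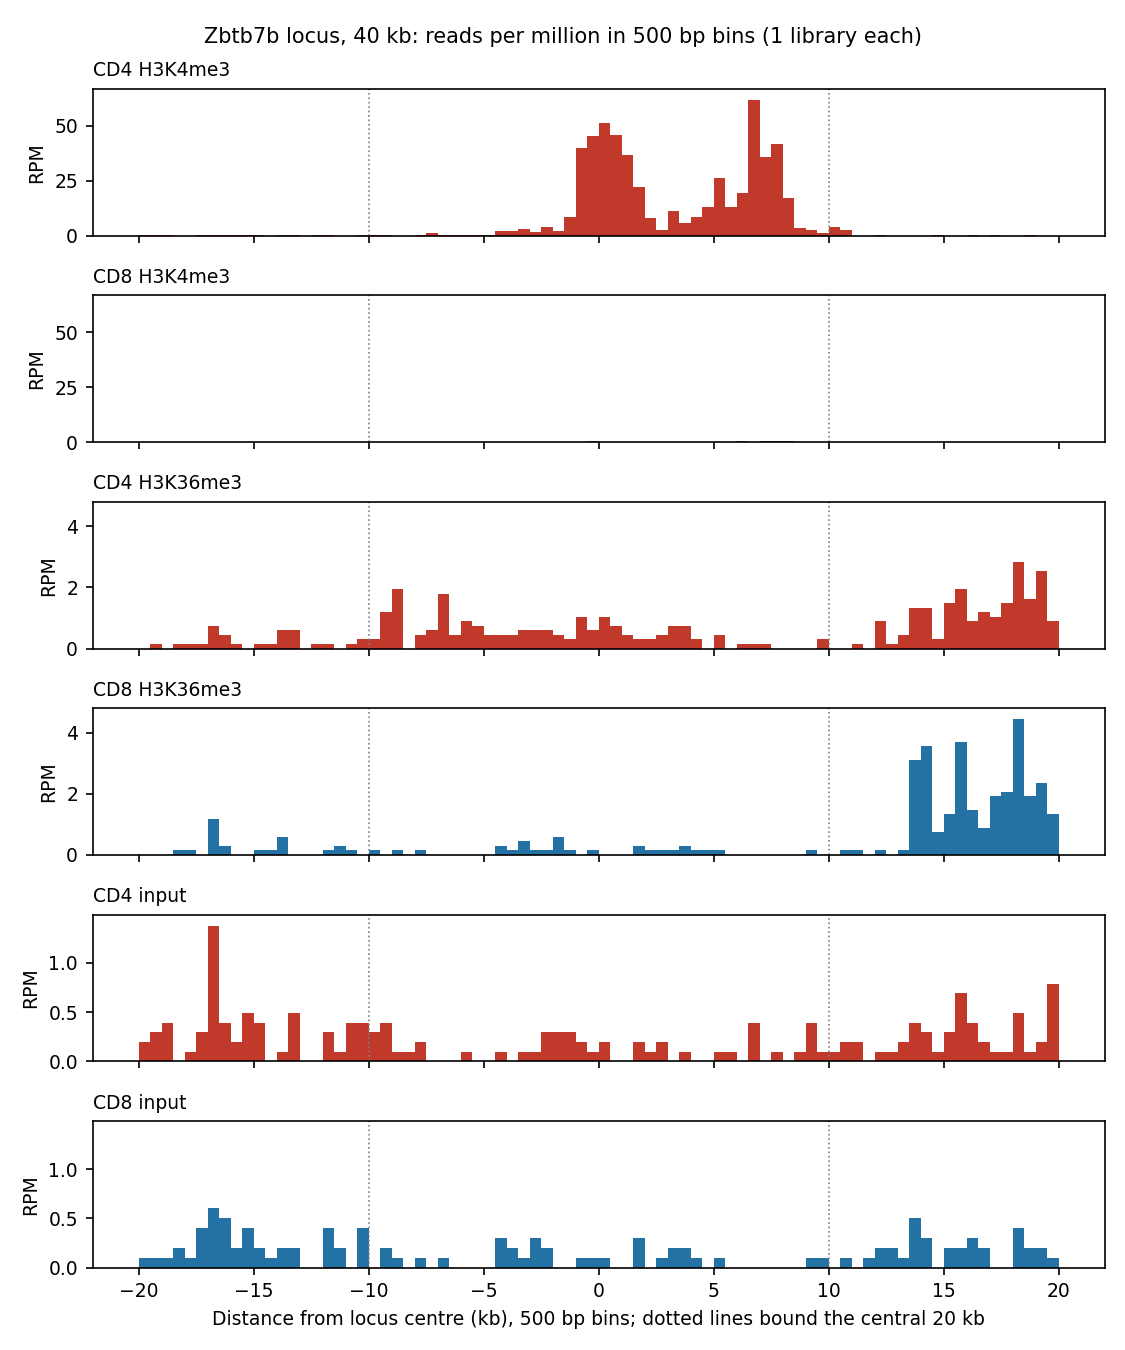
RPM in 500 bp bins across the 40 kb around Zbtb7b, by distance from the locus centre in kb, with 1 panel per library and the same vertical scale for each mark in both cell types. CD4 H3K4me3 reaches 61.9 RPM per bin, while CD8 H3K4me3 stays at or below 0.66 RPM and is invisible at this scale.

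In CD4 cells H3K4me3 at 4 times input or more was confined to part of the locus in 500 bp bins. Of the 80 bins, 30 had at least 4 times the input level in CD4 and 0 in CD8. Over the genome 1.12% of bins passed in CD4 and 0.956% in CD8. With few input reads per bin, input was set to at least 3 reads, so the rule amounted to a minimum of 12.7 reads in CD4 and 14.6 in CD8. With 1 read kept per start position 4 bins passed in CD8, and with pooled inputs 1 bin did. Of the 40 central bins, 37 had the higher RPM in CD4, 1 in CD8 and 2 had no read in either library. The share of such bins over the genome was not counted, and the CD4 library has the higher background. In the lowest 10 kb of the locus CD4 cells had 23 reads and CD8 cells 1, a ratio of 34.4 (5.58 to 1415). Background levels would give 12.1 and 0.642 reads there. The 30 bins with enough reads for a comparison, and 10 of the 20 windows of 2 kb, were all called at least 2-fold higher in CD4. They entered the comparison through the CD4 library alone, where they are high, so these counts are no support. The same call is made in 28.2% of such bins and 25% of such windows genome-wide.

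The widest CD4 domain spanned 11.2 kb at chr3:89187601-89198800 with 5616 reads, and CD8 cells had no domain anywhere in the 40 kb. Domains were built by joining 200 bp bins at or above 4 times input. The CD8 library had 51 reads in the same 11.2 kb. Small CD4 domains of 0.6 kb lay on both sides, with 45 reads at chr3:89186201-89186800 and 64 reads at chr3:89200201-89200800, where CD8 cells had 2 and 3 reads. The width depended on the rule. It was 15.2 kb with 1 read per start position, with a 2-fold rule or with pooled inputs, each of which joined these pieces. With an 8-fold rule the locus held 2 CD4 domains, the wider of 5.6 kb. The CD8 width was 0 kb under all 6 alternatives. Input was set to at least 3 reads in each 200 bp bin too, so a CD8 bin needed at least 14.6 reads under the main rule. No 500 bp bin held more than 8 CD8 reads. With 1 read per start position the minimum was 4.70, which some CD8 bins of 200 bp reached. A domain also needed at least 20 reads, so none was called. The CD8 width of 0 kb thus says only that its reads lay below the minima of the rule.

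Within the domain the CD4 mark had a pair of summits 6.5 kb apart. The low-coordinate summit, the bin chr3:89190001-89190500, had 549 reads in CD4 and 1 in CD8. Its neighbours chr3:89190501-89191000 and chr3:89189501-89190000 had 493 and 486 CD4 reads, with 0 and 4 in CD8. These bins made up a broad plateau. The high-coordinate summit, chr3:89196501-89197000, had 664 reads in CD4, the highest of the locus, and 1 in CD8. A further bin on that side, chr3:89197501-89198000, had 449 CD4 and 7 CD8 reads. Between the summits the level fell to 29 CD4 reads and 0 CD8 reads in chr3:89192501-89193000.

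The summits divided the domain into parts of similar size. The low-coordinate part, chr3:89187601-89192500, held 2832 CD4 reads, or 53.9 RPM per kb. The high-coordinate part, chr3:89193001-89198800, held 2755, or 44.3 RPM per kb. This division was chosen after the values were seen. At 100 bp resolution the high-coordinate summit was split. The bins chr3:89196801-89196900 and chr3:89197401-89197500 held 234 and 250 CD4 reads, while chr3:89197201-89197300 between them held 0. No bin of the low-coordinate plateau between chr3:89189201 and chr3:89191600 held fewer than 35 reads. Neither input had a read in the 500 bp bin around that gap, chr3:89197001-89197500, so the inputs do not show whether reads could be placed there.

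**Figure D2:**
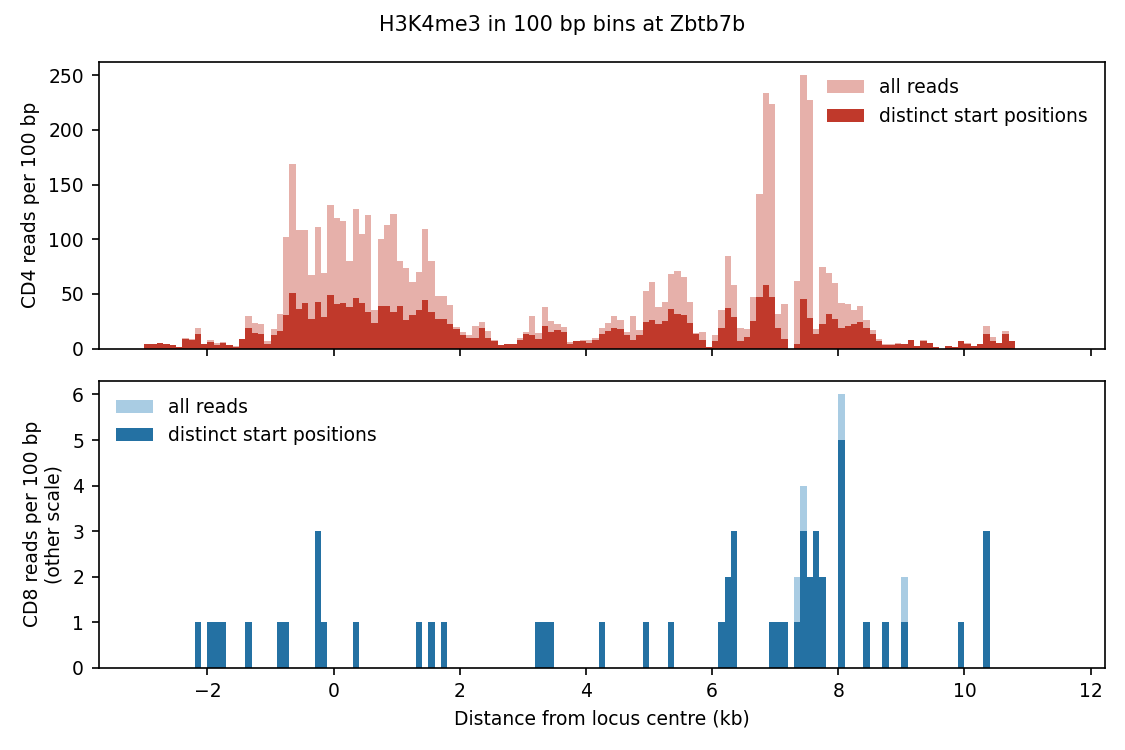
H3K4me3 reads per 100 bp at Zbtb7b by distance from the locus centre in kb, CD4 above and CD8 below on a scale of its own, with all reads in pale and distinct start positions in dark. A plateau at about the centre and a split summit further to the right stand out in CD4, with up to 250 reads per bin, while no CD8 bin exceeds 6 reads.

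The edges of the CD4 mark were uneven. On the low-coordinate side a shoulder of 20 to 43 reads per 500 bp ran from chr3:89185501 to chr3:89188500, and chr3:89182501-89183000 had 11 reads. CD8 cells had 0 to 3 reads in the bins of that shoulder. On the other side the last marked bin, chr3:89200501-89201000, held 28 CD4 reads and the next bin 0. From chr3:89201001 to the end of the locus no bin had more than 1 read in either cell type. Repeated positions were common in the CD4 domain, where 5616 reads lay at 2298 distinct starts with up to 44 reads at a start. The 51 CD8 reads lay at 48 starts.

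The few CD8 H3K4me3 reads were not spread like the CD4 reads. The high-coordinate part of the domain held 36 of them and the low-coordinate part 15, although CD4 reads were about equal there. CD8 reads thus amounted to 0.53% of the CD4 reads in the low-coordinate part and 1.31% in the high-coordinate part. The ratio of CD4 to CD8 was 2.47 times higher in the low-coordinate part (1.31 to 4.86), and 2.40 times (1.26 to 4.79) with 1 read per start position. The CD8 background level would give 0.117 and 0.0875 reads in these parts. Relative to input, CD8 H3K4me3 stood at 4.94 times in the high-coordinate part (2.06 to 14.3) and at 0.511 times over the whole 40 kb (0.371 to 0.699). That value below input is still above background, as the 40 kb held 67 CD8 reads where background would give 1.58. The largest CD8 count of any bin was 8 reads, at chr3:89197001-89197500. The 4 bins that passed in CD8 with 1 read per position all lay between chr3:89196001 and chr3:89198500, with 6 or 7 starts each against a minimum of 4.70.

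The CD8 library carried H3K4me3 at other domains nearby. The 6 CD4 domains outside the locus and within 60 kb of its centre each overlapped a CD8 domain. Most CD4 domains do, as only 12.6% overlapped none over the genome, so this count is nothing particular to the neighbourhood. The closest, chr3:89215201-89216200, lay 16.4 kb above the Zbtb7b domain with 610 CD4 and 319 CD8 reads, a ratio of 2.86 (2.49 to 3.28). The next, chr3:89221401-89223200, had 812 CD4 and 1554 CD8 reads and was 1.28-fold higher in CD8 (1.18 to 1.40). On the lower side chr3:89153401-89154600 had 641 and 576 reads, a ratio of 1.66 (1.48 to 1.86). None of these 3 reached the ratio of 164.5 (124.9 to 221.2) at the Zbtb7b domain, which was 50.7 (38.1 to 69.0) with 1 read per start position.

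H3K36me3, the mark of transcribed bodies, was also higher in CD4 cells within the central 20 kb. CD4 cells had 135 reads, or 20.1 RPM, and CD8 cells 28 reads, or 4.14 RPM. The CD4 level was 4.25 times its input (3.04 to 6.04). The CD8 level was 1.33 times its input, with an interval that includes equality (0.771 to 2.30). Background lay below input, and its level would give 10.1 CD4 and 6.83 CD8 reads in this stretch. The ratio of CD4 to CD8 was 4.97 (3.29 to 7.76), or 4.88 (3.22 to 7.62) with 1 read per start position. A call of at least 2-fold higher in CD4 is made in 1.32% of 20 kb windows genome-wide, and this window ranked 6 of the 15965 compared. In windows of 10 kb, 3 of the 4 in the locus could be compared, and the 2 central ones were called higher in CD4, against 2.08% genome-wide. The 20 kb window and these 2 entered the comparison through the CD4 library alone, where they are high. Their calls and the rank are therefore no support. The inputs themselves held more reads in CD4 over these 20 kb, 1.52-fold (0.947 to 2.47). Divided by that ratio and scaled to total reads, the log2 difference was 1.67 in place of 2.31.

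The CD4 reads of H3K36me3 lay over the low 15 kb of the central stretch, including the low-coordinate H3K4me3 summit, and were few at the high-coordinate summit. In chr3:89180001-89185000 CD4 cells had 56 reads and CD8 cells 3, a ratio of 19.2 (6.25 to 96.1), where the inputs had 12 and 5 reads. In the next 5 kb, chr3:89185001-89190000, the counts were 37 and 14, a ratio of 2.72 (1.44 to 5.45). In chr3:89190001-89195000 they were 34 and 9, a ratio of 3.89 (1.83 to 9.23). In chr3:89195001-89200000, which holds the high-coordinate H3K4me3 summit, H3K36me3 had 8 reads in CD4 and 2 in CD8. The CD4 level of 1.19 RPM lay below the 1.28 RPM of the CD4 input. Background levels would give 2.73 CD4 and 0.661 CD8 reads in this segment. The ratio of 4.12 there had an interval that includes equality (0.823 to 39.9).

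The highest central bin of CD4 H3K36me3, chr3:89181001-89181500, had 13 reads in CD4 and 1 in CD8, with 0 H3K4me3 reads in either. The H3K36me3 level of CD4 cells fell on that side near chr3:89180501. The lowest 10 kb of the locus had 28 CD4 and 22 CD8 reads, at 0.705 and 0.738 times the input. Background levels would give 12.6 and 9.70 reads in these 10 kb. The marks overlapped in the low-coordinate part of the H3K4me3 domain, which held 39 CD4 H3K36me3 reads at 3.47 times the input (1.92 to 6.54). The H3K4me3 summit bin there had 7 of them. In the RefSeq table Zbtb7b runs from high to low coordinates, on build GRCm38.p6.

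**Figure D3:**
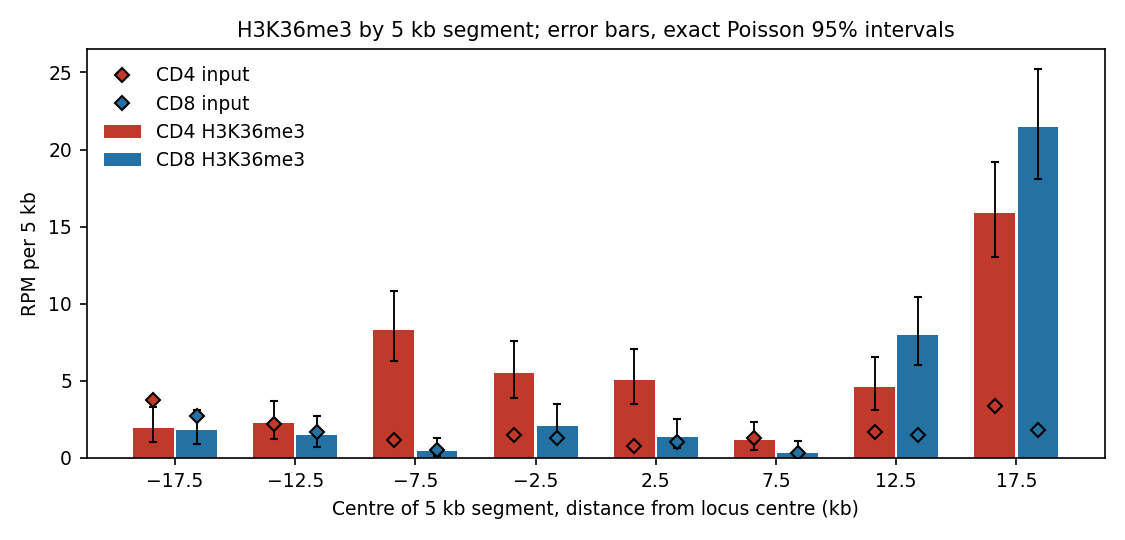
H3K36me3 in RPM for each 5 kb segment of the locus, by distance of its centre from the locus centre in kb, CD4 in red and CD8 in blue, with exact Poisson 95% intervals as error bars and the inputs as diamonds. CD4 is higher from -7.5 to 2.5 kb, with intervals that do not overlap, and CD8 has the higher value in both segments on the right.

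The wide interval gave another picture. Over the whole 40 kb CD4 cells had 301 and CD8 cells 249 H3K36me3 reads, a ratio of 1.25 (1.05 to 1.48). It was not called different. The call of 2-fold higher in CD4 is made in 0.846% of 40 kb windows, and the locus ranked 1822 of 8867. The inputs over the 40 kb had 159 and 108 reads, a ratio of 1.44 (1.12 to 1.86). Divided by the input ratio and scaled to total reads, the log2 difference turned from 0.32 to -0.25.

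A stretch above the Zbtb7b mark held most CD8 reads of the wide interval and about as many CD4 reads as the central 20 kb. In chr3:89200001-89210000 H3K36me3 had 138 reads in CD4 and 199 in CD8, at 4.09 and 8.90 times the input. The value was 1.40-fold higher in CD8 (1.12 to 1.75), below the 2-fold rule. The first bin with at least 5 reads in both cell types began at chr3:89203501, and 6 CD4 reads against 1 CD8 read already lay at chr3:89202001-89202500. From chr3:89203501 on, 10 of the 13 bins had the higher RPM in CD8. The share of such bins over the genome was not counted. The bin chr3:89208001-89208500 was the highest of the locus in both libraries, with 19 CD4 and 30 CD8 reads. The bin chr3:89209001-89209500 had 17 and 16, chr3:89205501-89206000 13 and 25, and chr3:89204001-89204500 9 and 24. H3K4me3 was at 4 reads in CD4 and 0 in CD8 over these 13 bins, or 6.5 kb. The CD4 to CD8 ratio of H3K36me3 was 6.92 times higher in the central 20 kb than in all of chr3:89200001-89210000 (4.31 to 11.4).

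Among all H3K4me3 domains the one at Zbtb7b was wide and unequal. It ranked 4 in width and 7 in reads among 15608 CD4 domains, whose median width was 1 kb and median count 343 reads. With all reads counted, its log2 ratio of 7.36 ranked 4 among all of them and 1 among the 100 domains of 5 kb or wider, whose median was 0.51. Overlap with no CD8 domain occurred for 2 of those 100, or 2%, and for 12.6% of all CD4 domains. The central 20 kb ranked 3 of 9139 windows of 20 kb compared for H3K4me3, where 8.73% are called higher in CD4. This window entered the comparison through the CD4 library alone, where it is high, and the ranked domains were called in CD4. The locus had also been picked with such results known, so these ranks only describe it and are no support.

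**Figure D4:**
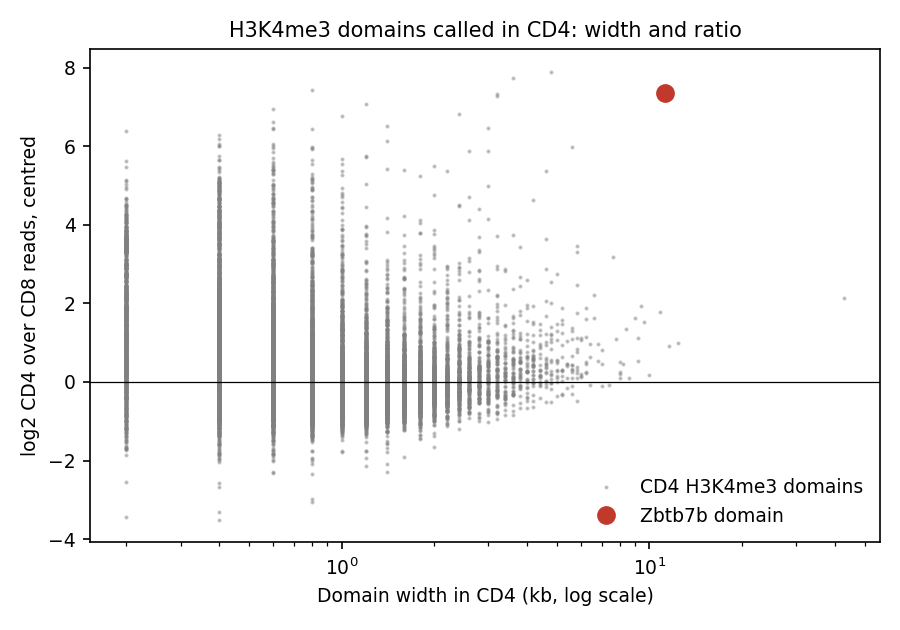
Width in kb on a log axis against the centred log2 ratio of CD4 to CD8 H3K4me3 reads for 15608 domains called in CD4, with the Zbtb7b domain as the red point. It sits at 11.2 kb and 7.36, above every other domain of 5 kb or wider.

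The regions most like it were sought among the other 99 domains of 5 kb or wider, by the distance between their log2 RPM per kb in the 4 precipitated libraries. The nearest was chr3:106587801-106593400, 5.6 kb wide, at a distance of 2.29 against a median of 6.68. It had 2152 CD4 and 51 CD8 H3K4me3 reads, a ratio of 63.0 (47.8 to 84.9), and was the other wide domain without a CD8 domain. Its H3K36me3 did not follow, with 37 CD4 and 48 CD8 reads, where the Zbtb7b domain had 60 and 17. The following 4 regions lay at distances of 4.41 to 4.70. They were chr14:54786201-54797000, chr8:84291201-84298800, chr7:80682001-80687000 and chr19:11518001-11523800, with H3K4me3 ratios of 3.47, 9.07, 6.69 and 9.96, and each overlapped 2 to 4 CD8 domains. Genes are not named for these regions for the same lack of an annotation.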

How the data were processed

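The authors deposited the start and end of aligned reads, 1 read of 33 bp per line, with no strand or score, and the submitters' processing notes name build mm9. How reads were aligned and whether repeats or multiple matches were dropped is not given in the sources used here. Starts were taken as 0-based and are printed 1-based. Only reads placed on the autosomes, X and Y entered, each counted where its midpoint fell. A window was compared where it held at least 20 reads and 4 times (H3K4me3) or 2 times (H3K36me3) the input in either cell type, with input at 3 reads or more. It was called from a 2-fold difference whose exact conditional 99.9% interval excluded 1. Log2 ratios were centred on 19376 windows of 2 kb (H3K4me3) and 24050 windows of 10 kb (H3K36me3). A fold against 0 reads used a floor of 3 reads. Domains of 200 bp bins were joined over gaps of up to 400 bp and needed 20 reads. Background was taken 10 kb or more from any 2 kb window with over 9 reads. Likeness used log2 of RPM per kb plus 0.1.

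Named bins were the 5 highest for CD4 H3K4me3, every bin at 4 times input for CD8 H3K4me3, and the 3 highest for H3K36me3 per cell type; further bins were picked after seeing their values. The locus, intervals and lists were chosen with earlier results of these data known. The 19 lineage genes and the cell type markers listed were not applied for lack of an mm9 annotation. The rules were tested on simulated data. Alternatives were 1 read per position, scaling, input subtraction, pooled inputs, other intervals, bins and folds. Software was SciPy 1.17.1, NumPy 2.4.6 and pandas 2.3.3 in Python 3.11.15, with matplotlib 3.10.9. Promoters and neighbouring genes came from RefSeq tables of GRCm38.p6.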

Additional observations from a re-analysis of the deposited data

How the results depend on the processing

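Of 41 alternative values 31 stayed within the interval or within 1.5 times the count, and 1 changed sign. The 31 include every alternative for the CD8 domain width of 0 kb, which reflects the minima of the rule and is no sign of stability. The log2 H3K4me3 ratio of the central 20 kb was 7.13, and it was 5.49 with 1 read per start position, 6.72 with total-read scaling, 7.84 over 10 kb and 6.12 divided by the input ratio with total-read scaling. The log2 H3K36me3 ratio of the same stretch, 2.31, was 1.67 over 10 kb and 1.67 with the same division and scaling. That of the whole 40 kb turned from 0.32 to -0.25 under that division and scaling, 2 changes made together and chosen after seeing the data. The widest CD4 domain went from 11.2 kb to 5.6 kb at 8-fold over input, by construction, as the wider of 2 in the locus. CD8 bins at 4 times input numbered 0, and 4 with 1 read per start position or 1 with pooled inputs, both of which lower the minimum count. The cause was not tested for the remaining shifts. Counting reads by any overlap left the ratios of the central 20 kb the same. With 28 CD8 H3K36me3 reads in the central 20 kb, depth limits what can be said of 5 kb pieces. No paired analysis was possible because each group holds 1 library.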
